A study of Mus musculus with 2 samples.

Results

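Gene-end regions called as accessible in control stem cells but not in stem cells given the linker histone H1C made up the set described here, which was chosen by the calls themselves. A gene-end region is an entry of the control list on chromosomes 1 to 19 or X that lies within 1 kb of a start or end of exactly 1 protein-coding gene (mm10) and is under 1000 bp wide. It was counted as control-only where it had no 1 bp overlap with any H1C entry, and as kept where it had one. There were 3303 control-only regions at 3035 genes, out of 8115 gene-end regions (40.7%), and the other 4812 were kept. The whole control list held 32005 entries and the whole H1C list 13156.

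The assay was ATAC-seq, which marks open chromatin through the places where a transposase can insert adapters. The cells were hematopoietic stem cells (CD48-CD150+LSK) from bone marrow of wild-type C57BL/6J mice, carrying MSCV-H1C (treatment label H1C overexpression) or pMSCV (treatment label Control). The labels put the input at about 1000 cells for a library, and each group had 1 library, so no value below has a replicate check and no test between conditions is given. Both groups carried a retrovirus; the age of the mice, the measured level of H1C and any selection of transduced cells are not given in these sources.

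H1C, now named H1f2, is one of the somatic linker histones, proteins that bind the nucleosome where DNA enters and leaves and that favour compact chromatin. Promoters of active genes are usually depleted of nucleosomes just before the start of transcription, which is what the transposase detects. Many mouse promoters are rich in the dinucleotide CpG and open in most cell types, while CpG-poor promoters are more often tied to a lineage. In stem cells the open gene ends therefore include both housekeeping genes and genes of blood lineages.

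The choice of regions rests on the H1C calls, so the number of control-only regions and their strength describe the choice and test nothing. For the same reason a control-only region has no H1C value at all, only the absence of a call. Of all 31831 control entries on these chromosomes 65.9% lacked an H1C overlap, and of the 8115 gene-end regions 40.7% did. The lists give no read totals, so depth is unknown. The genome-wide background of the caller, which scales with the reads used, was 1.10 times as high in H1C as in control.

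The sequences before the starts of 9 genes are given as examples of promoters at these regions and do not stand for the whole set. A stretch can run past the called region. Each is the 250 bases before an annotated RefSeq start (build GRCm38.p6), 5′ to 3′ on the strand of the gene, with every CpG in capitals. Clasrp, Slc27a4, Klhl7, Polrmt and Mocs1 are among the 10 strongest control-only regions, H2-Aa and Enox2 are control-only and CpG-poor, and Dohh and Urm1 are kept regions of strength close to that of Slc27a4 and Klhl7. The sequences of H2-Aa, Enox2, Dohh and Urm1 were picked after their values were seen.
Clasrp, chr7:19604487-19604736, minus strand, control-only: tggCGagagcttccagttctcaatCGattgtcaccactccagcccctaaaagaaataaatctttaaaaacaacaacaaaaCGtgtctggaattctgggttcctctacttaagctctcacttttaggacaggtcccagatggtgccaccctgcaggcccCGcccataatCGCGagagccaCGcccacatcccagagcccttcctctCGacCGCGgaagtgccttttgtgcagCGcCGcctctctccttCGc
Slc27a4, chr2:29802384-29802633, plus strand, control-only: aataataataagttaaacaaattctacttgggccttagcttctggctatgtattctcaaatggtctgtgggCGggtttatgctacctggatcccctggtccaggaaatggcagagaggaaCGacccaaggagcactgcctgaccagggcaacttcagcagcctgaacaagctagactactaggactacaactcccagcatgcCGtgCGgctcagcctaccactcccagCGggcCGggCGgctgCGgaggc
Klhl7, chr5:24100340-24100589, plus strand, control-only: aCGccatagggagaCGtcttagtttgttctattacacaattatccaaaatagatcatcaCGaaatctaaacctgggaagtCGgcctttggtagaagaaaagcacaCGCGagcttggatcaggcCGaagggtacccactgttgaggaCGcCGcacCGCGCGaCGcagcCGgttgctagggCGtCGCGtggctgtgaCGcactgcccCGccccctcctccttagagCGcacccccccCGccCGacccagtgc
Polrmt, chr10:79746582-79746831, minus strand, control-only: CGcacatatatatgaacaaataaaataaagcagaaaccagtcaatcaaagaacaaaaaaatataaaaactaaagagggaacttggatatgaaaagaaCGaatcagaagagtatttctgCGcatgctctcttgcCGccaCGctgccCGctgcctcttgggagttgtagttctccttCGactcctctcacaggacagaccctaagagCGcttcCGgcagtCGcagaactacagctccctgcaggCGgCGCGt
Mocs1, chr17:49428114-49428363, plus strand, control-only: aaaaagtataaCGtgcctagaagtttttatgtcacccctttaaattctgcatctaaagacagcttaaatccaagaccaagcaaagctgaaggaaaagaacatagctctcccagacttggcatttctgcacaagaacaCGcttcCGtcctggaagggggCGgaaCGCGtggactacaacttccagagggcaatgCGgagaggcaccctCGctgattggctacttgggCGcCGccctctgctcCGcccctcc
H2-Aa, chr17:34287824-34288073, minus strand, control-only: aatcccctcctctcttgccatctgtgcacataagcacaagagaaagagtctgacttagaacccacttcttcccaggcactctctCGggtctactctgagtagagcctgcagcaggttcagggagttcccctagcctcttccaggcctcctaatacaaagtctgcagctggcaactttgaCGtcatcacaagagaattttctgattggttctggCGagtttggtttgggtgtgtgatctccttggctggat
Enox2, chrX:49288243-49288492, minus strand, control-only: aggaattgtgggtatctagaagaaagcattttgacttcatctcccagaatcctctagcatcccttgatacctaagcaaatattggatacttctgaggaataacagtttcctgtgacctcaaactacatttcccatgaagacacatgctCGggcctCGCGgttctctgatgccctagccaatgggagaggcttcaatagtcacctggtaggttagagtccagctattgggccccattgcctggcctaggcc
Dohh, chr10:81384184-81384433, plus strand, kept: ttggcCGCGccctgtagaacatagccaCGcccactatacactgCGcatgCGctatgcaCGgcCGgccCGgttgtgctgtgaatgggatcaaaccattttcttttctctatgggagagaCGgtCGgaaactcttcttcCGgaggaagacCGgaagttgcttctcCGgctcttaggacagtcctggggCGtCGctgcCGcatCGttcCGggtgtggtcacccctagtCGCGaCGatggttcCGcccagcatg
Urm1, chr2:29827139-29827388, plus strand, kept: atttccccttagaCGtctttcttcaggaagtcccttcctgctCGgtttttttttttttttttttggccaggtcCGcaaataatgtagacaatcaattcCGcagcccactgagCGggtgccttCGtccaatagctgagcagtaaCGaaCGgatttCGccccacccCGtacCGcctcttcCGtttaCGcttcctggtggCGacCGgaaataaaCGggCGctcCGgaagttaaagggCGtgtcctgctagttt
These stretches held 22 CpG at Klhl7, 13 at both Clasrp and Polrmt, 11 at Mocs1 and 8 at Slc27a4, but 3 each at H2-Aa and Enox2. The kept promoters held 22 at Dohh and 19 at Urm1. Dohh and Urm1 are the most CpG-rich of the kept partners of the 10 strongest regions. By CpG ratio, the CpG count over that given by the C and G content of a 300-base window, the control-only promoters among those 10 ran from 0.548 at Slc27a4 to 1.04 at Polrmt. The kept partners ran from 0.596 at Wdr62 to 1.09 at Urm1, so both sets covered nearly the same range.

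Control-only regions were mostly the weak ones of the control list. Strength is taken as the authors' −log10 p of a region, the summit read stack set against its local background. It had a median of 10.9 in control-only regions (quartiles 7.89 and 15.5, range 3.57 to 50.6) and 32.7 in kept regions (range 4.38 to 114). The summit pileup, the number of reads or fragments stacked at the summit, had a control median of 27 in control-only regions (range 12 to 76) and 55 in kept regions (range 15 to 135). The groups overlapped over nearly the whole range of the control-only regions. Control-only regions were also narrower, with a median width of 309 bp, against 569 bp for kept regions.

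When the 8115 regions were put into 10 bins of −log10 p of equal size, the control-only share fell at every step from weak to strong. It was 92.1% in the weakest bin (748 of 812), 62.9% in bin 4, 43.0% in bin 5, 24.2% in bin 6 and 3.20% in bin 8. In the strongest bin 0 of 812 were control-only, and the upper end of the exact interval was 0.453%. The 3 strongest bins together held 37 control-only regions of 2435 (1.52%), and the 3 weakest held 2117 of 2435 (86.9%). Intervals here and below cover counting error only, since regions of 1 library are not replicates of a condition and amplified reads are not independent molecules.

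**Figure D1:**
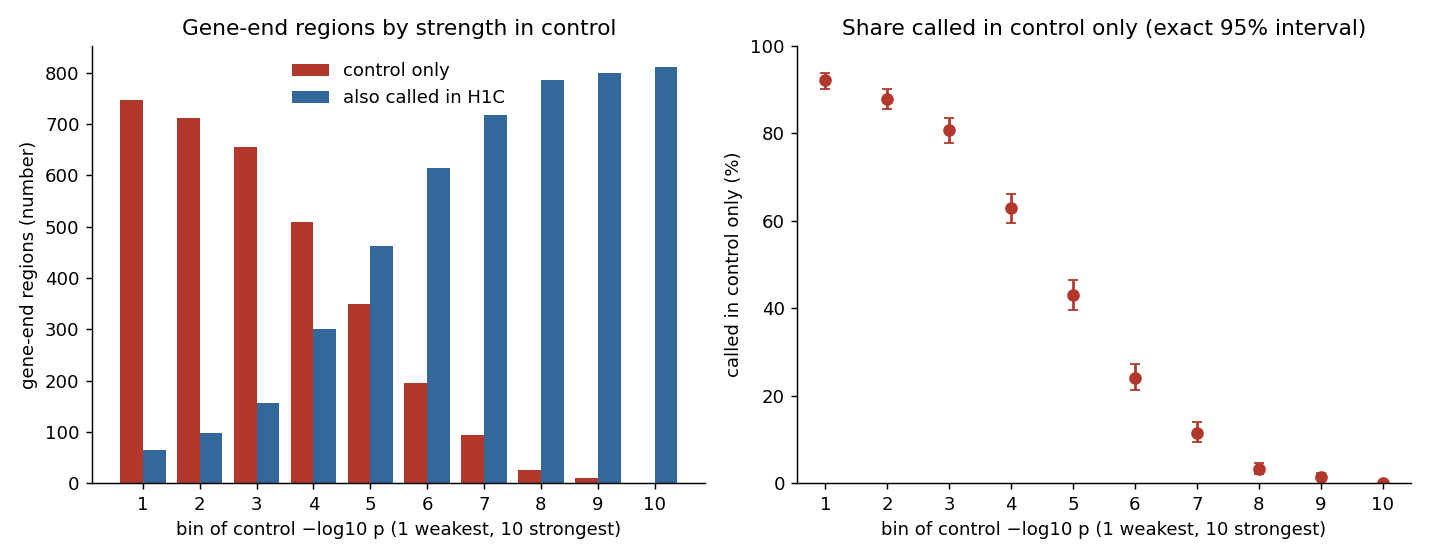
Left, number of control-only (red) and kept (blue) gene-end regions in 10 bins of control −log10 p, and right, the control-only share in percent with exact 95% intervals. The share runs from 92.1% in the weakest bin to 0 of 812 regions in the strongest.

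Kept regions of the same strength show what was read in H1C where a call was made. In bin 5 the kept regions had a median pileup of 26 in H1C and 38 in control, and in bin 9 of 41 in H1C (range 20 to 69) and 70 in control. In the weakest bin the H1C median was 21.5 and the control median 20. A region has an H1C value only where a call was made, and the lowest pileup of any called H1C entry was 14, so among weak regions only the higher H1C values are seen.

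The 10 strongest control-only regions included 8 that lay over an outer boundary of the annotated gene. Pars2, the mitochondrial prolyl-tRNA synthetase, had the highest strength (chromosome 4, 106650805 to 106651371) with a control pileup of 72 and a fold over local background of 10.2. Clasrp, which encodes an SR-related protein tied to splicing, followed with a control pileup of 70 (chromosome 7, 19604081 to 19604683). Slc27a4, a fatty acid transporter, had a control pileup of 68 (chromosome 2, 29802461 to 29802944). These 3 genes had no H1C entry within 1 kb of either end, and the nearest H1C entry to the region was 27501, 23767 and 14060 bp away.

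Acat1, a mitochondrial thiolase, had a control pileup of 62 (chromosome 9, 53609994 to 53610533), with the nearest H1C entry 6316 bp away. Klhl7, a Kelch-like adaptor of a cullin ubiquitin ligase, had a control pileup of 57 over a low local background of 4.12 and the highest fold of the group, 11.3. Polrmt, the mitochondrial RNA polymerase, had a pileup of 64 and Mocs1, of molybdenum cofactor synthesis, one of 65. Rfc3, a subunit of the clamp loader of DNA replication, had a pileup of 58 and the nearest H1C entry 281870 bp away. Bend3, a transcriptional repressor gene, had a pileup of 64 in a region that began 410 bp inside the gene from its start. Dtx3l, a ubiquitin ligase of the DNA damage response, had 69 in a region 622 bp upstream of its start. None of the 10 genes had an H1C entry at either end.

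Each of these 10 was set beside the kept region nearest to it in −log10 p. The kept regions had pileups of 27 to 52 in H1C (median 42.5) and 55 to 81 in control, and the 10 control-only regions had 57 to 72 in control. At Lcmt1, a methyltransferase gene with the same strength as Pars2, the pileup was 38 in H1C and 72 in control. At Taf7, a TFIID subunit gene with the same strength as Rfc3, it was 27 in H1C and 58 in control. At Xrn1, an RNA exonuclease gene beside Dtx3l in strength, it was 45 in H1C and 55 in control. The partners were picked by their strength in control, so the overlap of both sets in control follows from the choice. A kept region has a called H1C entry by definition, so its H1C pileup could not lie below the lowest one called. The regions were 353 to 613 bp wide in the control-only set and 394 to 839 bp in the kept set.

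**Figure D2:**
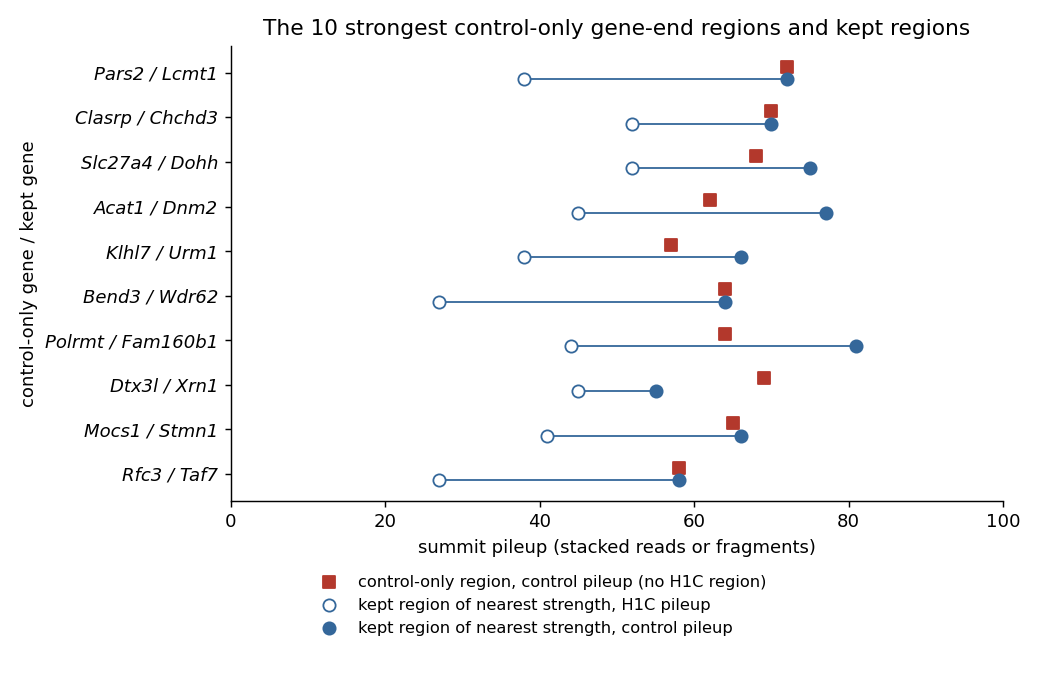
Summit pileups of the 10 strongest control-only regions (red squares, control library) and of the kept region nearest to each in −log10 p (H1C, open blue circles; control, filled blue circles), 1 row per pair. Kept regions have 27 to 52 in H1C and 55 to 81 in control, and the control-only regions have 57 to 72 in control and no H1C entry.

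To set other features apart from strength, each class of regions was compared with the share that strength alone gave, that is, the mean over its regions of the control-only share of their bin. For values per region, kept regions were weighted to the bins of the control-only regions. The weights came from all control-only regions, also for the start share and CpG ratio, which were taken for part of them. In the weakest bin they rested on 64 kept regions, and weighted values have no interval. Weighted in this way, kept regions had a mean −log10 p of 12.7 and control-only regions one of 12.4. Control-only regions were still narrower, with a mean width of 361 bp against 436 bp in weighted kept regions. Regions under 250 bp wide were control-only in 92.2% of cases, against 85.9% given by strength, and those of 800 bp or more in 8.72%, against 14.1%. A wider region also has more bases in which an H1C entry can overlap it, and its part in this difference was not tested.

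The start of a gene and its far end differed. The promoter table gave a strand for the genes of 2585 of the 3303 control-only regions (78.3%) and of 3952 of the 4812 kept ones (82.1%). As fewer than 80% of the control-only regions had an entry, the check is void for the whole set, and it describes only the regions with an entry. Regions with no entry were control-only in 45.5% of 1578 cases, and strength gave 45.5%. Among those with an entry, 2252 of 2585 control-only regions (87.1%, 85.8 to 88.4) lay nearer the start than the far end of the gene, against 93.0% of weighted kept regions. That is a difference of -5.87 percentage points. Regions that missed the promoter window of the nearest start were control-only in 74.7% of 1489 cases (72.4 to 76.9), against 69.9% given by strength.

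The far ends, where transcripts terminate, held 412 regions, of which 333 were control-only (80.8%, exact 95% interval 76.7 to 84.5), against 72.1% given by strength. The interval did not contain the share given by strength, also when width was taken into account. In bin 3 the share was 92.4% at far ends and 77.7% at starts, and in bin 5 it was 63.6% and 41.5%. In bins 7, 9 and 10 no far-end region was control-only, but these bins held 9, 5 and 2 of them. The far-end share was higher in 7 of the 10 bins, but the intervals of far ends and starts were apart only in bins 3 and 8, and bin 8 held 3 control-only regions of 13 at far ends.

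The strongest far-end examples, picked after their values were seen, were Vamp1, Polr3gl and Cabp1. Vamp1, a vesicle fusion protein gene (chromosome 6, 125222192 to 125222558), had a control pileup of 59 with the summit 6825 bp downstream of its start, just past the end of a gene of 6726 bp. Polr3gl, an RNA polymerase III subunit gene, had a pileup of 61 and Cabp1, a calcium-binding protein gene, one of 52. At Vamp1 and Polr3gl the H1C list held another entry within 1 kb of an end of the gene, and at Cabp1 it held none.

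At starts, control-only and weighted kept regions had similar summit positions. Relative to the nearest annotated start of the promoter table, with negative values upstream, the summit had a median position of -24 bp in 2252 control-only regions and -50 bp in 3873 kept regions, with no weighting. In the step of 100 bp just before the start lay 34.9% of control-only regions, 33.6% of weighted kept regions and 50.6% of unweighted ones. Regions with a summit within 100 bp of a start were control-only in 31.0% of 3646 cases, against 31.6% given by strength. Those with a summit over 500 bp downstream were control-only in 73.0% of 407 cases, against 71.9%. Both intervals held the share given by strength. A start in the promoter table can lie away from the outer boundary of the gene, as at Ube2b, where the region covered the boundary and the summit was at -3454 bp.

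**Figure D3:**
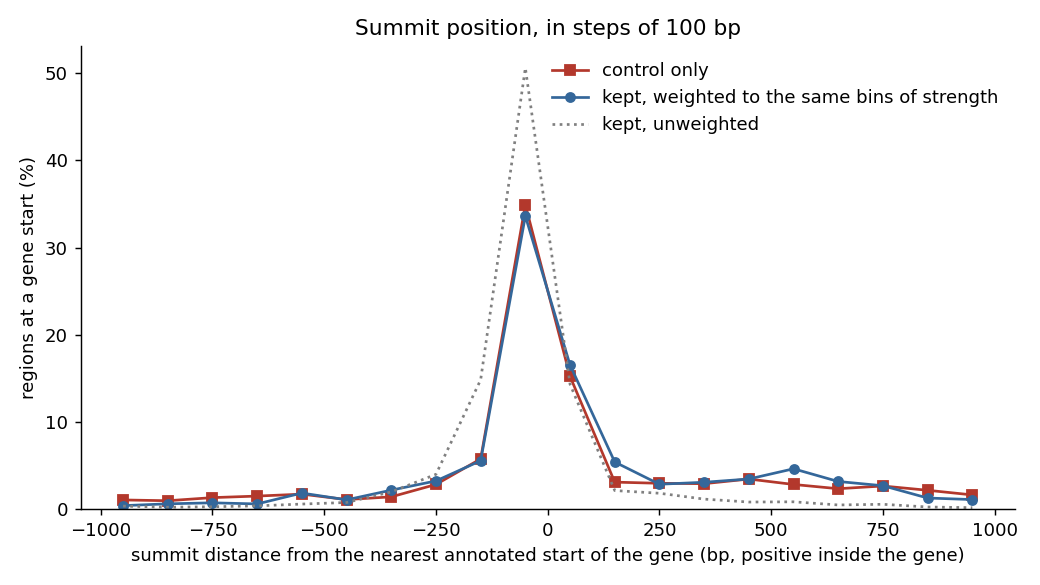
Share of start regions by summit distance from the nearest annotated start of the gene, in steps of 100 bp, for control-only regions (red), kept regions weighted to the same bins of strength (blue) and unweighted kept regions (grey, dotted). The control-only and weighted kept lines peak together just before the start, at 34.9% and 33.6%.

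Regions over CpG-poor promoters were control-only more often than regions of equal strength over CpG-rich ones. The CpG ratio is the number of CpG in the 300-base promoter window (250 bases before and 50 after the start) over the number its C and G content would give. It was taken for regions that overlap the window of the nearest start, 1473 control-only and 3575 kept. Its mean was 0.684 in control-only promoters (SD 0.263 over promoters), against 0.771 in weighted kept and 0.808 in all kept promoters. Below a ratio of 0.6 lay 33.7% of the control-only promoters (496 of 1473, 31.3 to 36.2), 20.0% of weighted kept and 13.5% of all kept promoters. The mean GC content was 60.2% in control-only and 62.1% in weighted kept promoters.

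Across classes of CpG ratio the control-only share ran the same way. Under 0.4 it was 66.8% of 368 regions (61.8 to 71.6), against 56.0% given by strength. From 0.4 to 0.6 it was 41.1%, against 39.1%. From 0.8 to 1.0 it was 21.7% of 1776 regions (19.8 to 23.7), against 25.0%, and at 1.0 or more 21.6% of 723 (18.6 to 24.8), against 26.8%. Below 0.4 and above 0.8 the interval did not contain the share given by strength, with and without width taken into account. The share given by strength came from all gene-end regions, while the classes hold only regions over a promoter window. Those 5048 regions together were control-only in 29.2% of cases (27.9 to 30.5), against 30.6% given by strength, and the class differences include this shortfall.

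The order held within the bins. In bin 5, of median pileup 37, regions with a CpG ratio under 0.6 were control-only in 57.6% of 125 cases (48.4 to 66.4) and those of 0.6 or more in 35.4% of 404 (30.7 to 40.3). In bin 4 the shares were 70.9% and 55.9%, and in bin 6 they were 32.4% and 19.7%. The CpG-poor share was the higher one in 9 of the 9 bins that held control-only regions of both classes, although the intervals of the 2 classes overlapped in bins 1, 2, 3, 7, 8 and 9. It was also seen at summits within 100 bp of a start, with 49.7% of 736 CpG-poor regions control-only, against 43.9% given by strength, and 26.2% of 2909 others, against 28.4%.

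**Figure D4:**
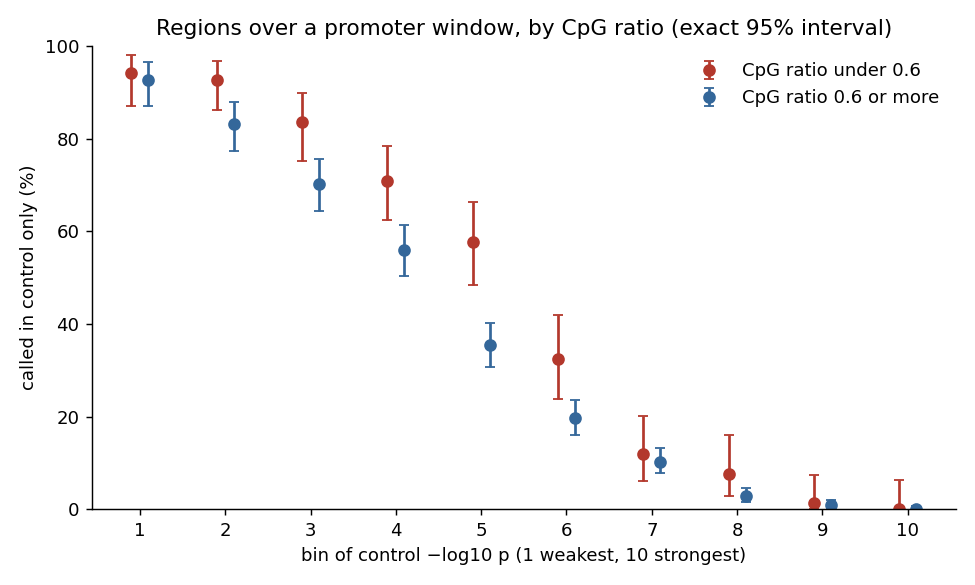
Control-only share in percent, with exact 95% intervals, of regions over a promoter window with a CpG ratio under 0.6 (red) or of 0.6 or more (blue), in 10 bins of control −log10 p. The red point is the higher one in bins 1 to 9, by the widest gap in bin 5 (57.6% and 35.4%).

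Single CpG-poor promoters show the range. H2-Aa, which encodes a chain of the class II antigen-presenting molecule, had a CpG ratio of 0.158 and a control pileup of 59 (chromosome 17, 34287683 to 34288077). It had the most neighbours of any control-only region, 18 other control entries within 50 kb, of which 7 were called in H1C. H2-Eb1, another class II gene close by, had no CpG in its window, a pileup of 49 and 8 of 16 neighbouring entries called in H1C. Vamp2, a vesicle fusion protein gene with no promoter entry, had a pileup of 44 and 5 of 16. The strongest region with a ratio under 0.4 was that of Enox2, an oxidase gene on chromosome X, with a ratio of 0.219 and a pileup of 48. Cyp4f13, a cytochrome P450 gene, had a ratio of 0.278 and a pileup of 55, and Trim30a, an interferon-inducible gene, had a ratio of 0 and a pileup of 49. These last 3 were picked after their values were seen.

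By control-only share, known factor motifs added little beyond strength and CpG ratio. Promoter windows were searched on both strands for 13 motifs, none of which contains another, and the share of regions with the motif that were control-only was compared with that given by strength. The GATA motif AGATAA, read by the GATA factors of blood, was in 122 of 1473 control-only windows (8.28%), against 4.00% of weighted kept windows and 9.65% of all 21262 promoter windows of protein-coding genes. Regions with it were control-only in 43.7% of 279 cases (37.8 to 49.8), against 36.6% given by strength and 38.1% given by strength and CpG ratio together. The first share lay outside the interval and the second inside it. It was the 1 motif of 13 outside by strength, and 0 of 13 were outside by strength and CpG ratio.

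For the other motifs, the interval of the control-only share held the share given by strength. The shares of windows with a motif were not compared by interval, and some differed between control-only and weighted kept windows. RUNX (TGTGGTT) was in 5.23% of control-only, 3.02% of weighted kept and 4.71% of all windows, and its regions were control-only in 39.7% of 194 cases, against 36.9% given by strength. The GC box (GGGCGG), bound by SP and KLF factors, was in 62.0% of control-only, 67.6% of weighted kept and 46.2% of all windows. In the same order, the CCAAT box (CCAAT) was in 32.9%, 26.2% and 38.2%, the ETS motif (CCGGAAG) in 17.0%, 18.1% and 11.6%, and the TATA box (TATAAA) in 7.81%, 7.78% and 12.6%. The E-box (CACGTG) was in 10.7% of control-only, 11.96% of weighted kept and 7.84% of all windows, and its regions were control-only in 27.0% of 582 cases, against 29.4% given by strength. Again for control-only, weighted kept and all windows, AP-1 (TGANTCA) was in 5.63%, 4.81% and 6.99%, CRE (TGACGTCA) in 3.87%, 5.69% and 2.23%, and the PU.1 motif (GAGGAAGT) in 3.94%, 3.23% and 3.13%. NRF1 was in 2.17%, 2.38% and 1.33%, YY1 in 1.56%, 1.71% and 1.21%, and the motif of ZBTB33 and related factors in 0.611%, 1.02% and 0.673%. A match is a string of letters and not a bound site.

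Gene families differed widely in how often their regions were control-only, but in each of them the exact interval held the share that strength gave in bins of −log10 p. The families were 27 sets of gene symbols and held 778 of the 3303 control-only regions. With at least 20 regions, the share went from 13.6% for aminoacyl-tRNA synthetases (3 of 22) to 75.7% for ion channels (28 of 37). The difference from the share given by strength ran from -8.38 points for splicing factors to 9.84 points for ion channels over these 25 families.

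Aminoacyl-tRNA synthetases, cytosolic ribosomal proteins, splicing factors and translation factors had the 4 lowest control-only shares. Cytosolic ribosomal protein genes were control-only at 9 of 61 regions (14.8%, 6.98 to 26.2), against 17.3% given by strength, and the strongest of these was Rpl26 (pileup 45). Translation factors were control-only at 11 of 52 (21.2%), against 24.7%, led by Eif5a2 (44), a paralogue of the factor that carries hypusine. Splicing factors were control-only at 9 of 48 (18.8%), against 27.1%, among them Snrpd1 and Prpf39. Oxidative phosphorylation subunits were control-only at 14 of 52 (26.9%), against 28.8%, with Cox17, a copper chaperone of cytochrome oxidase named with them, at a pileup of 44. Genes with symbols of the mitochondrial ribosomal protein series were control-only at 13 of 39 (33.3%), against 40.4%. Mrps36 (54) and Mrps30 (44) were the strongest, and their place in the family rests on the symbol alone.

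DNA repair and replication genes were control-only at 14 of 44 regions (31.8%, 18.6 to 47.6), against 31.1% given by strength. Rfc3 was the strongest and Pola1, the catalytic subunit of DNA polymerase alpha, came next with a pileup of 37. Mitosis genes and kinesins were control-only at 27 of 63 (42.9%), against 38.2%, including Kif21b (63) and the centromere kinesin Cenpe (45). Proteasome subunits were control-only at 12 of 33 (36.4%), against 34.9%, including Psmd6 and Psmd2. Histone genes were control-only at 14 of 29 (48.3%), against 54.9%, with H4c8 at a pileup of 57 and H3c11 at 37. Reads from near-identical histone copies can be placed at the wrong copy.

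Zinc finger genes, many of them clustered repressors of repeats, were control-only at 111 of 264 regions (42.0%, 36.0 to 48.3), and strength gave 42.0%. Zfp128 (pileup 56) and Zfp456 (48) were the strongest. Solute carriers were at 72 of 159 (45.3%), against 44.8%, with Slc35e3 (45) after Slc27a4. Rab GTPases were at 12 of 44 (27.3%), against 26.9%, and GTPase regulators at 35 of 71 (49.3%), against 50.2%, led by Rapgef1 (55), an exchange factor. RNA helicases were at 13 of 36 (36.1%), against 34.7%, and included Ddx11 (46) and Ddx27 (43). Ubiquitin conjugation and removal genes were at 19 of 68 (27.9%), against 31.4%, and included Ube2b, whose pileup of 76 was the highest of all control-only regions. F-box and Kelch-like adaptors were at 18 of 54 (33.3%), against 36.3%.

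Cadherins, ion channels, G protein-coupled receptors and immune surface genes had the 4 highest control-only shares of the 27 families. Immune surface and cytokine genes were control-only at 104 of 157 regions (66.2%, 58.3 to 73.6), against 61.1% given by strength, with Ly6e (63) and H2-Aa (59) strongest. In bins of summit pileup in place of −log10 p the share given was 56.1%, which the interval did not hold. Ion channels were at 28 of 37 (75.7%, 58.8 to 88.2), against 65.8%, with Cacng2 (37) and Kcnj2 (39), and G protein-coupled receptors at 30 of 40 (75.0%), against 68.0%, with the olfactory receptor Olfr433 (34) and Adgre5 (48). Cadherins and protocadherins were at 7 of 7, against 83.5%, over a lower bound of 59.0%. Developmental and lineage transcription factors were at 19 of 40 (47.5%), against 49.3%, with Klf5 (39) and Hoxa4 (32). The median −log10 p of a family's regions was 8.84 for ion channels and 13.3 for immune genes, against 32.7 for cytosolic ribosomal proteins.

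Of the families not yet given, MAP kinase cascade genes were control-only at 11 of 35 (31.4%), against 24.8%, with Mapkapk3 (64) and Mapkapk2 (55), where another H1C entry lay 433 and 576 bp from the region. Collagens, laminins and matrix proteases were at 5 of 13 (38.5%), against 51.8%. The Tmem series was at 36 of 92 (39.1%), against 39.1%, and the Ccdc series at 24 of 56 (42.9%), against 37.7%. Gene models with no function in the name were at 108 of 200 (54.0%), against 50.3%.

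**Figure D5:**
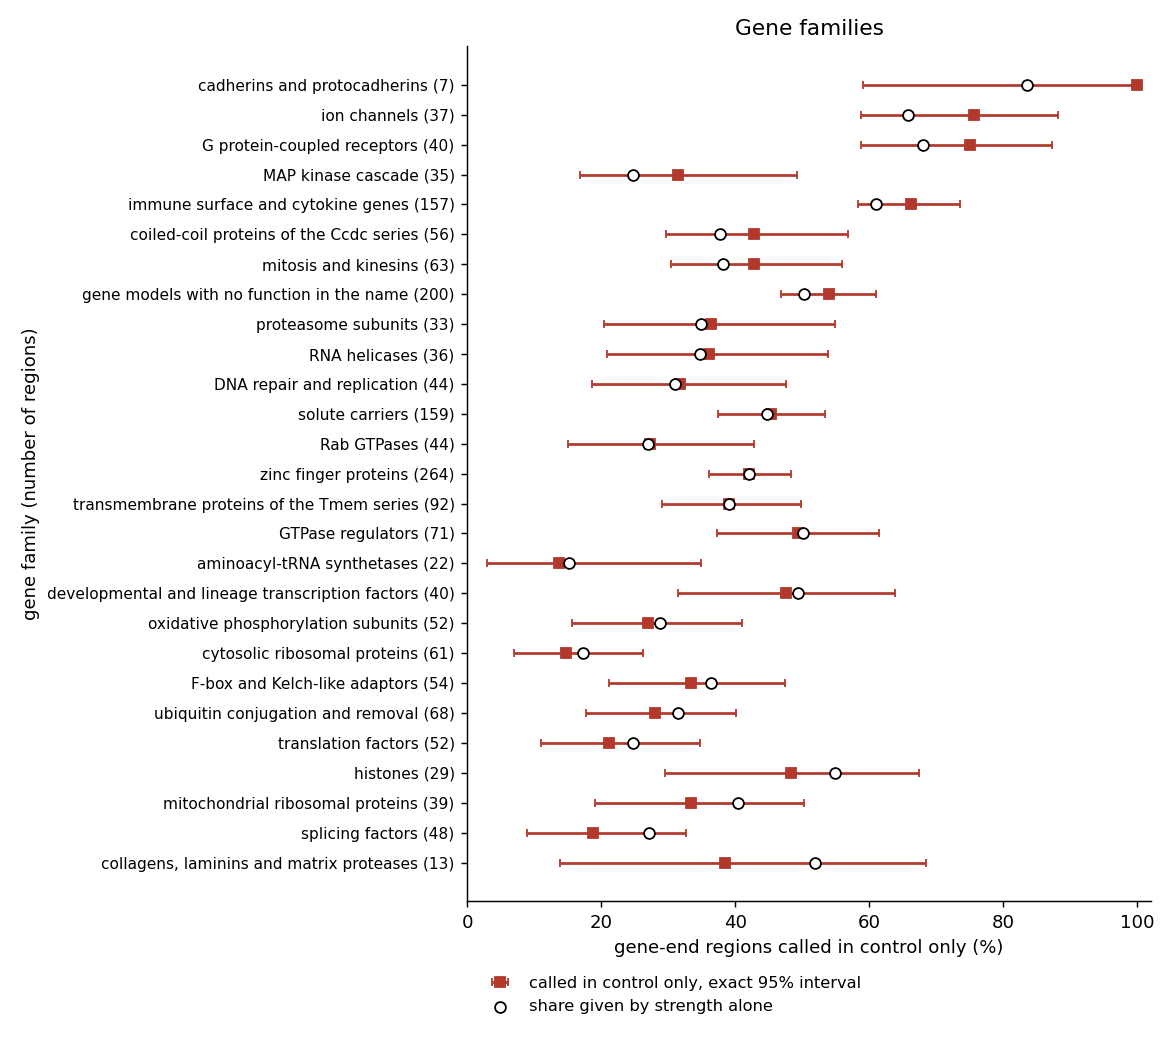
Control-only share of the gene-end regions of 27 gene families in percent (red squares, exact 95% intervals) and the share given by strength alone (open circles), sorted by their difference, with the number of regions in brackets. Every interval holds its open circle, while the shares themselves run from 13.6% for aminoacyl-tRNA synthetases to 7 of 7 for cadherins and protocadherins.

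No class of a gene's surroundings departed from the share given by strength, although some values set against weighted kept regions did differ. Gene length, the number of other control entries within 50 kb, the share of these called in H1C, a long noncoding RNA gene end within 1 kb and a second H1C entry at the gene gave 19 classes. Their control-only shares differed from those given by strength by -2.26 to 2.64 points, and in 0 of 19 did the interval fail to hold the share given. The share of each bin is taken over all regions, those of the class included. A class that holds most of the 8115 regions, as the 7090 without a long noncoding RNA gene end, can hardly depart from it. Genes had a median length of 22554 bp at control-only, 28133 bp at weighted kept and 25229 bp at all kept regions. Over regions with a neighbour, a mean of 38.3% of the entries within 50 kb of a control-only region were called in H1C, against 39.1% around weighted kept regions, a difference of -0.829 points. Within 10 kb the difference was -6.15 points, and within 50 kb in bins of pileup it turned to 0.00952 points. Long noncoding RNA gene ends lay within 1 kb of 9.69% of control-only regions (8.70 to 10.7). For weighted kept regions it was 12.2%, outside that interval.

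By chromosome, the control-only share ran from 33.7% on chromosome 16 to 50.7% on chromosome X. Strength gave 33.9% and 48.7% there. The differences from strength ran from -4.82 to 3.75 points, and on 0 of 20 chromosomes did the exact interval miss the share given.

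Some genes with a control-only region had another region that was called in H1C. Of the 3035 genes, 622 (20.5%, 19.1 to 22.0) had an H1C entry at either end in spite of the control-only region, and 2413 had none. By region, an H1C entry that did not overlap the region lay at the gene's ends for 19.6% of control-only regions (18.3 to 21.0). It did so for 18.3% of weighted kept and 8.04% of all kept regions, so at equal strength the shares were close. Most genes, 2777, had 1 control-only region, and 249 had 2, 8 had 3 and 1 had 4. The genes with 3 or 4, named after their values were seen, were Atp6v0a1, Hes1, Ier2, Pcgf5, Kazald1, Tnfaip8l2, H6pd, Tent5a and 3300002I08Rik. Of 40 genes with at least 3 gene-end regions, 8 had every one of them control-only, a count with no share given by strength beside it.

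Ier2, an immediate early gene, had pileups of 45, 43 and 53 in control at its 3 control-only regions and no H1C entry at its ends. Hes1, a target and effector of Notch signalling, had pileups of 40, 27 and 30, and likewise no H1C entry. In the same order, −log10 p was 10.3, 10.2 and 16.0 at Ier2 and 16.2, 7.60 and 9.27 at Hes1. These values lie in bins 2 to 4, where 87.9%, 80.8% and 62.9% of all regions were control-only. Tnfaip8l2, a regulator of immune responses, had 32, 45 and 39 around its start. Tent5a, a poly(A) polymerase gene, had pileups of 22, 24 and 70, and likewise no H1C entry at its ends. At Atp6v0a1, a proton pump subunit gene with 4 control-only regions of pileup 24 to 41, a further region was called in H1C.

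The values at the edges of the choice were close to each other. Gm8369 and Smc4 lay 1000 and 999 bp from a gene end with control pileups of 18 and 26, and a region near Polg at 1001 bp, with 28, fell just outside. Pgls (994 bp wide, pileup 47) and Depdc1b (973 bp, 46) were just inside the width limit, and Eef2k (1000 bp, 52) just outside. Of the 312 regions of 1 gene that were at least 1000 bp wide, 19 (6.09%) lacked an H1C overlap. Regions at Skil and Calhm6 missed an H1C entry by 4 and 9 bp, with control pileups of 30 and 19.

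The labelled cell type was checked against marker genes at their gene ends, and the counts did not single out stem cells. Of the 18 stem cell genes listed, 9 had a control entry at a gene end, and 6 of them (Kit, Ly6a, Slamf1, Meis1, Tal1 and Hlf) had a control-only one. Control entries lay at gene ends of 8 of 10 lymphoid, 4 of 10 myeloid, 2 of 9 erythroid and megakaryocyte and 2 of 6 stromal and endothelial genes, and control-only ones at 6, 3, 1 and 2 of them. The 6 lymphoid genes were Cd3e, Cd3d, Cd79b, Ebf1, Pax5 and Il7r. These entries were of any width, and no share given by strength was computed for the lists. Of all 7204 genes with a gene-end region, 3035 had a control-only one, a lower share than in any of the lists. That base holds only regions under 1000 bp wide, unlike the lists, and the lists are short. Whether the lists differ from other genes of equal strength was not tested, so nothing particular to them is read from these counts. An open gene end does not measure expression, and fewer open cells and less opening per cell cannot be told apart in these pooled libraries.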

How the data were processed

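The data were 1 H1C and 1 control ATAC-seq library. The submitters' processing notes name MACS2, featureCounts, Picard, Bowtie2 2.2.9 and Trim Galore 0.4.4, with mm10 as the build; their roles and settings, duplicate handling and read shifting are not given in the sources used here, and each can alter heights and summits. Regions had been called per library. In the deposited lists, fold is the ratio (pileup + 1) / (local background + 1) at the summit. The score and the −log10 p and −log10 q values of a region are also the authors' own, and all were used only to describe, rank or bin regions within their own list. Entry numbers had no gaps (0 missing in either list).

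Pileup and local background were solved from fold and −log10 p, with a whole pileup within a relative tolerance of 0.0001 for 13155 of 13156 H1C and 32005 of 32005 control entries. The solver and the comparison with the share given by strength were tested on simulated data. The simulated classes were larger than most gene families, so what the intervals of small families could detect was not tested. Genes came from RefSeq tables of GRCm38.p6, and promoters and strands from its promoter table, which had an entry for 2369 of the 3035 genes. The control-only share of each of 10 bins of −log10 p (column 8) gave the share given by strength, and intervals are exact Clopper-Pearson 95% intervals. With 1 library per group no test was run. The members, gene families and other lists were chosen with earlier results of these data known. The genes named were the 10 strongest control-only regions with their kept partners, up to 2 per family, those at the edges of the rule and those with most neighbours, and others are marked where they stand; some of the genes this rule names are not reported here. Figures were drawn with matplotlib 3.10.9, and values computed with scipy 1.17.1, pandas 2.3.3 and numpy 2.4.6 under Python 3.11.15. Alternatives changed the window, overlap rule, width, threshold, bins and neighbourhood.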

Additional observations from a re-analysis of the deposited data

How the results depend on the processing

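No paired analysis was possible because there was a single library per condition. Of 49 alternatives for 6 results, 35 stayed near the value, 13 moved and 1 changed sign; the cause was not tested. Bins of −log10 p and width together were chosen after seeing the data. The number of control-only regions stayed within 1.5 times (2525 to 4271). The control-only share was 36.6% within 500 bp, 46.6% within 2.5 kb, 52.6% with 50% reciprocal overlap, 34.7% at a control −log10 q of at least 5 and 39.4% at any width. The difference in start share was -4.17 points within 500 bp and -3.61 with reciprocal overlap, and in CpG ratio -0.0529 with reciprocal overlap; in every alternative run both stayed below 0. The neighbour difference was -4.22 points when an H1C entry within 200 bp counted as a call, -1.99 in bins of fold, -1.87 in bins of −log10 p and width, -6.15 within 10 kb, and 0.00952 in bins of pileup, where its sign turned. In bins of pileup 1 of 27 families, the immune surface and cytokine genes, had an interval (58.3 to 73.6%) without the share given (56.1%), against 0 in bins of −log10 p. Depth is unknown, so a region without an H1C call was not detectable at that library's threshold and may still be open.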
